A study of Arabidopsis thaliana with 15 samples.

Results

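Genes that mark the stomatal lineage and mature guard cells of Arabidopsis thaliana were followed through 15 RNA-seq libraries of the eds4 mutant and the wild type. From the deposited count tables, 10 of 33602 loci were taken by locus identifier, with no rule on measured values, though earlier results of these data were known. They were the transcription factors SPCH (AT5G53210), MUTE (AT3G06120), FAMA (AT3G24140) and SCRM (AT3G26744), the signalling peptide EPF2 (AT1G34245), the receptor-like protein TMM (AT1G80080), and the guard cell genes KAT1 (AT5G46240), SLAC1 (AT1G12480), HT1 (AT1G62400) and MYB60 (AT1G08810). All 10 passed the filter on low counts in both experiments.

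The profiling experiment held whole eds4 mutant seedlings (n = 3) and whole wild type Col-0 seedlings (n = 4). The distribution experiment held nuclei isolated by fluorescence-activated sorting from eds4 -/- seedlings (n = 2) and from wild type Col-0 seedlings (n = 2), beside total RNA of whole eds4 -/- seedlings (n = 2) and of whole wild type Col-0 seedlings (n = 2). The profiling mutants were also homozygous, and the labels give no ecotype for eds4. All plants were 2 weeks old by their labels, with harvest given as day 10 to day 14 for every sample. They were untreated and grown at 22 °C in continuous white light. The EDS4 locus, AT5G51200, codes for NUP205, a structural subunit of nuclear pores, the channels through which RNA leaves the nucleus.

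Stomata are pores in the leaf epidermis, each bounded by a pair of guard cells. SPCH starts the lineage that makes them, MUTE ends its asymmetric divisions and FAMA drives the last step to a guard cell, each as a dimer of basic helix-loop-helix (bHLH) proteins with SCRM or a close relative. EPF2 is secreted by early lineage cells and restrains entry into the lineage through ERECTA-family receptors and TMM. In the finished guard cell, the potassium channel KAT1 and the anion channel SLAC1 move the ions that open and close the pore, HT1 is a kinase of the carbon dioxide response, and MYB60 is a transcription factor that promotes opening.

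The windows below run from 250 bases before to 50 bases after the RefSeq gene start (TAIR10.1) and belong to 4 of the 10 genes. FAMA and TMM were called lower in wild type nuclei than in total RNA (adjusted p under 0.05 by edgeR), as were 15.6% of all genes. HT1 was nearly without reads in nuclei, and EPF2 had the largest difference between the genotypes in seedlings. Neither of these 2 was called by the main edgeR test. Capitals mark CANNTG, the E-box core to which bHLH factors such as SPCH, MUTE and FAMA can bind. The core reads as CANNTG on both strands.
FAMA: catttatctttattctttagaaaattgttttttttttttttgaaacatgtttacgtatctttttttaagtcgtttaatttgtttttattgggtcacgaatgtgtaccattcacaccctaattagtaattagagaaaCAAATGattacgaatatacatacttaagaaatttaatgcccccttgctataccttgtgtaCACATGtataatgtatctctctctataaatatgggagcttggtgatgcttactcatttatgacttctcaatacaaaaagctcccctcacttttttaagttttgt
TMM: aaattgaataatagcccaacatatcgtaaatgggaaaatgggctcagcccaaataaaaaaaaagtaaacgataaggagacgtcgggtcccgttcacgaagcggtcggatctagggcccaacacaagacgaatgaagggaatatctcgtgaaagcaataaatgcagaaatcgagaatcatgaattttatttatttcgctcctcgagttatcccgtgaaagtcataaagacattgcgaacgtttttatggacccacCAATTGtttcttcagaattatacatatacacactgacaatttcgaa
EPF2: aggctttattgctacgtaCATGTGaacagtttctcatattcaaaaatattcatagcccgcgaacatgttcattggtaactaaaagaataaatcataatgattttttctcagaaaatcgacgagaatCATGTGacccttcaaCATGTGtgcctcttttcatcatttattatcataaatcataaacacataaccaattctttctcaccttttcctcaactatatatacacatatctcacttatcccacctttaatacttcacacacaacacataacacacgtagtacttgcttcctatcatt
HT1: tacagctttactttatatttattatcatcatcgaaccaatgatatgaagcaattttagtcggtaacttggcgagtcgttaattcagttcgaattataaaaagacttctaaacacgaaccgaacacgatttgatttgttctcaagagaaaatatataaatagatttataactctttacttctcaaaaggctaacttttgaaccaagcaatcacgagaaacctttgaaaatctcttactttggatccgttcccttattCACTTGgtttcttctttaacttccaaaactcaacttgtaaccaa
The FAMA window was chr3:8718162-8718461 on the minus strand and held 2 cores, and the TMM window was chr1:30129600-30129899 on the minus strand and held 1. The EPF2 window was chr1:12472618-12472917 on the plus strand and held 3, all spelled CATGTG, and the HT1 window was chr1:23089360-23089659 on the plus strand and held 1. In the deposited annotation the TMM locus reaches 30129591 and the HT1 locus begins at 23090243, so both counted loci lie outside their windows. A core was present in the windows of 7 of the 10 genes, against 61.7% of 27443 windows of protein-coding genes. The SPCH, SCRM and SLAC1 windows held none. CACGTG, the form of the core known as the G-box, was in 1 of the 10 windows, that of KAT1, against 7.68% of all windows.

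Levels are given as CPM, the count of a gene relative to the total of its library, after library-size scaling by edgeR's trimmed-mean method (called TMM-scaled to keep it apart from the gene TMM), and per kb of the exonic length listed in the deposited tables wherever genes are compared with each other. Library totals were 39474734 to 45343833 counts in eds4 seedlings and 37277300 to 51059295 in wild type seedlings. Totals were lower in the distribution experiment, with 12393243 to 21786898 in eds4 nuclei, 15291096 to 19594301 in wild type nuclei, 22805360 to 31586867 in eds4 total RNA and 31168662 to 31745372 in wild type total RNA. Wild type nuclei replicate 2 had 11.2% of its counts on ribosomal RNA loci and 4.21% on chloroplast loci, the highest shares of the 15 libraries, and eds4 nuclei replicate 2 had a count at 20779 loci, the fewest. EDS4 itself was at 31.9, 32.0 and 42.2 CPM in eds4 seedlings, against 63.8 to 84.3 CPM in wild type seedlings (log2 change -1.05, SE 0.13, adjusted p = 0.0101 by edgeR's quasi-likelihood test). It stood at 41.3 and 29.1 CPM in eds4 total RNA, against 95.8 and 81.1 CPM in wild type total RNA. That difference was not called by edgeR (log2 change -1.33, SE 0.26). EDS4 was at 59.6 and 62.5 CPM in eds4 nuclei, against 48.5 and 65.6 CPM in wild type nuclei, so its level separated the genotypes in whole seedlings but not in nuclei. EDS4 was called higher in eds4 nuclei than in eds4 total RNA (log2 change 0.795, SE 0.26, edgeR adjusted p = 0.0441). In wild type this change was -0.634 and was not called (SE 0.26, edgeR adjusted p = 0.0908).

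Per length, SCRM stood far above the other genes and MUTE below them in seedlings. SCRM, which also acts in cold responses, averaged 24.6 ± 1.5 CPM per kb in eds4 seedlings and 27.1 ± 2.0 CPM per kb in wild type seedlings (SD, n = 3 and n = 4). MUTE, which acts in a brief step of the lineage, averaged 1.95 ± 0.36 CPM per kb in eds4 seedlings and 1.86 ± 0.69 CPM per kb in wild type seedlings. In both genotypes the order below SCRM began with TMM, FAMA, MYB60 and KAT1, which ranged from 13.9 down to 8.87 CPM per kb in eds4 seedlings and from 12.5 down to 9.59 CPM per kb in wild type seedlings. EPF2 and SPCH followed, with 7.74 ± 0.51 and 7.05 ± 0.23 CPM per kb in eds4 seedlings, against 6.09 ± 0.55 and 6.76 ± 1.29 CPM per kb in wild type seedlings. SLAC1 and HT1 came next, at 3.60 ± 0.47 and 3.40 ± 0.17 CPM per kb in eds4 seedlings, against 3.17 ± 0.40 and 3.37 ± 0.36 CPM per kb in wild type seedlings. The ranges of mean ± SD of neighbours in this order overlapped in both genotypes, apart from the steps from SCRM to TMM, from EPF2 and SPCH to SLAC1 and HT1, and from these to MUTE.

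SCRM was first of the 10 in all 6 groups. MUTE was last in 5 of the 6 groups, the exception being wild type nuclei, where HT1 was last at 0.203 ± 0.225 CPM per kb and MUTE had 0.442 ± 0.626 CPM per kb. FAMA was second per length in eds4 nuclei, at 8.78 ± 0.40 CPM per kb, against 2.28 ± 0.34 CPM per kb in wild type nuclei.

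**Figure D1:**
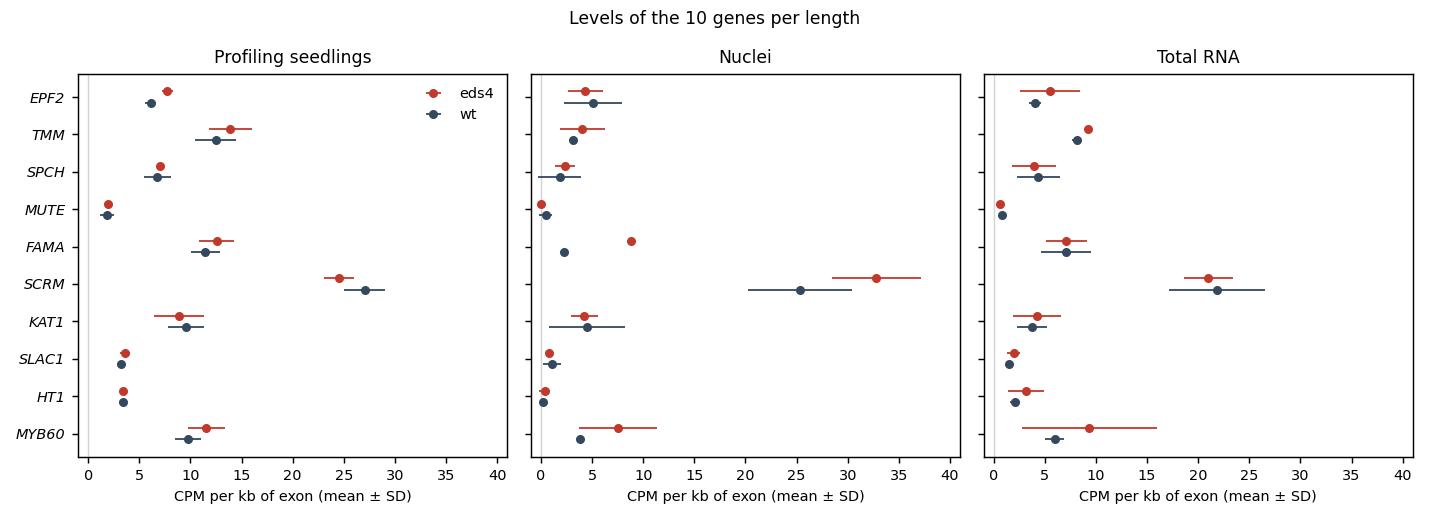
Mean level of each of the 10 genes, in CPM per kb of exon, in eds4 (red) and wild type (dark) samples of profiling seedlings (n = 3 and n = 4), nuclei (n = 2 each) and total RNA (n = 2 each), with bars of 1 SD. SCRM is the highest gene in every group, and FAMA in nuclei stands at 8.78 in eds4 and 2.28 in wild type, with bars that do not meet.

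The comparison of eds4 with wild type seedlings asked whether the expression of these genes in whole plants differed in the mutant. None of the 10 genes passed the threshold (edgeR, adjusted p under 0.05 over 22202 genes), where 1.34% of all genes did. DESeq2 called 0 of the 10 as well, and 1 of the 10, EPF2, was under an unadjusted p of 0.05, against 16% of all genes. The log2 changes were positive for 8 genes and negative for 2, with a median of 0.10 against 0.00 over all genes. The 95% intervals of the 10 changes lay between -0.65 and 0.78, both from MUTE, the gene with the fewest counts, so each held no change larger than 1.72-fold. In bulk samples such as these, fewer cells of a type and less RNA per cell cannot be told apart.

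Of the signalling genes, EPF2 had the largest difference. The EPF2 locus (chr1:12472868-12473754, TAIR10) had 4.81, 4.35 and 4.95 CPM in eds4 seedlings, against 4.15, 3.37, 3.57 and 3.73 CPM in wild type seedlings. Every eds4 library was above every wild type library, which was true of 8.71% of all genes. The log2 change was 0.34 (SE 0.13, 95% interval 0.05 to 0.63), with an edgeR adjusted p of 0.246. TMM (chr1:30128005-30129591), a single-exon gene by the lengths in the tables, had 24.4, 23.5 and 18.3 CPM in eds4 seedlings, against 24.6, 18.5, 17.8 and 18.3 CPM in wild type seedlings. The TMM groups overlapped, with both replicates numbered 1 at the top.

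The transcription factors overlapped between the genotypes. SPCH (chr5:21586606-21588941) ranged from 7.44 to 7.92 CPM in eds4 seedlings and from 5.78 to 9.07 CPM in wild type seedlings. FAMA (chr3:8715236-8718211) had 23.3, 23.6 and 18.4 CPM in eds4 seedlings, against 21.6, 21.6, 16.3 and 19.8 CPM in wild type seedlings. SCRM (chr3:9832689-9835247) had 54.7, 55.0 and 49.4 CPM in eds4 seedlings, against 64.0, 58.1, 57.8 and 53.6 CPM in wild type seedlings. SCRM and KAT1 were the 2 genes with a lower mean in eds4. MUTE (chr3:1846531-1848230) ranged from 1.35 to 1.93 CPM in eds4 seedlings and from 0.864 to 2.21 CPM in wild type seedlings.

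Among the guard cell genes, KAT1 (chr5:18743566-18746730) had 23.6, 23.5 and 13.9 CPM in eds4 seedlings, against 27.0, 23.2, 17.9 and 19.7 CPM in wild type seedlings. Its lowest library, eds4 replicate 3, set the wide eds4 spread. MYB60 (chr1:2819065-2820395) had 15.3, 15.8 and 11.7 CPM in eds4 seedlings, against 12.9, 13.8, 11.2 and 10.4 CPM in wild type seedlings, with a log2 change of 0.24 (SE 0.14, 95% interval -0.07 to 0.56) and an edgeR adjusted p of 0.436. SLAC1 (chr1:4257268-4259300) ranged from 5.75 to 7.31 CPM in eds4 seedlings and from 5.16 to 6.66 CPM in wild type seedlings. RefSeq places 2 genes on the opposite strand over SLAC1, and the kit does not record strand, so their reads cannot be told apart from those of SLAC1. HT1 (chr1:23090243-23091589) ranged from 3.52 to 3.86 CPM in eds4 seedlings and from 3.35 to 4.26 CPM in wild type seedlings.

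Several of the genes varied together between replicates. In SPCH, MUTE, FAMA, TMM, KAT1 and MYB60, 6 of the 10 genes, all libraries numbered 1 or 2 stood above all libraries numbered 3 or 4, whichever the genotype, as was the case for 6.74% of all genes. The labels do not say what the numbers stand for, and these sets were taken from an earlier account of the main axis of variance in the same libraries. The count of genes that follow the sets is therefore a description and not a test. For KAT1 the lowest library of replicates 1 and 2 had 23.2 CPM and the highest of replicates 3 and 4 had 19.7 CPM. For FAMA these values were 21.6 and 19.8 CPM. The gap was narrow for TMM, with 18.5 and 18.3 CPM, and for SPCH, with 7.79 and 7.44 CPM.

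**Figure D2:**
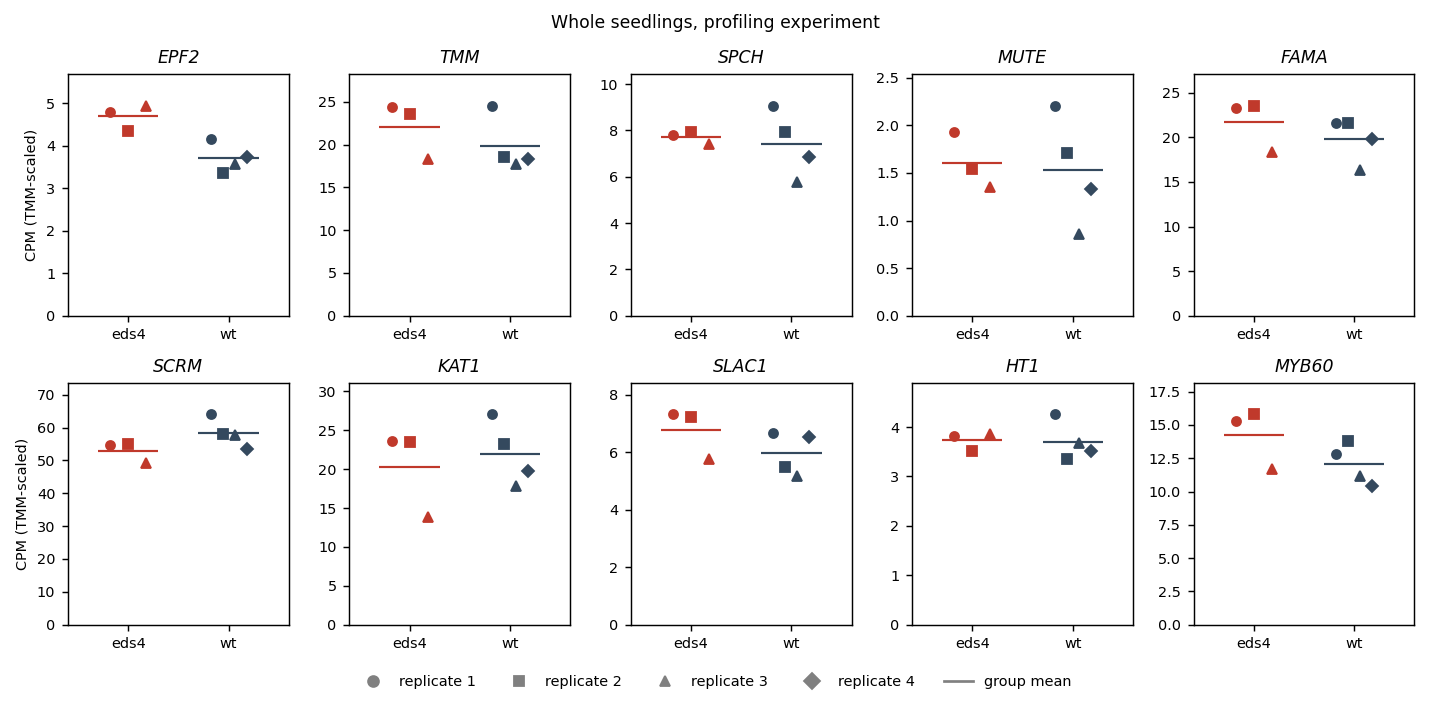
TMM-scaled CPM of the 10 genes in each library of the profiling experiment, eds4 (red) left of wild type (dark), with marker shapes for replicate numbers and a line at each group mean. EPF2 is the gene whose eds4 libraries (4.35 to 4.95 CPM) all lie above its wild type libraries (3.37 to 4.15 CPM), and in KAT1 and FAMA the circles and squares lie above the triangles and diamonds.

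The wider pathway had no calls by edgeR in seedlings. Of 25 other genes of stomatal lineage signalling and patterning, 0 were called by edgeR and 0 by DESeq2, 5 were under an unadjusted p of 0.05, and the median log2 change was -0.05, against 0.00 over all genes. Of 30 other guard cell function genes, 0 were called by edgeR and 2 by DESeq2, 6 were under an unadjusted p of 0.05, and the median was again -0.05. Over all genes DESeq2 called 1011 and 16% were under an unadjusted p of 0.05, so these counts were near the background. Of 9 epidermal genes, CER1, a gene of wax synthesis, was called lower, at 49.5 CPM in eds4 seedlings against 89.2 CPM in wild type seedlings on average (log2 change -0.85, SE 0.15, edgeR adjusted p = 0.0393). The CER1 call was lost in 6 of the 7 analyses that left out 1 library, all but the one without wild type replicate 2.

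The distribution experiment asked how transcripts were divided between nucleus and whole seedling. Its comparisons share the same 8 libraries, fitted together with 21484 genes, and each ratio is relative to the typical gene, since the scaling centres most genes on no change. In wild type, 2 of the 10 genes, FAMA and TMM, were called lower in nuclei, where 15.6% of all genes were called lower and 15.1% higher. The libraries of 4 genes, FAMA, TMM, HT1 and MYB60, were all lower in nuclei than in total RNA, against 35.4% of all genes. DESeq2 called 3 there, with HT1 as the third. In eds4, 0 of the 10 were called, where 29.6% of all genes were. There DESeq2 called 2, TMM and HT1, and 2, TMM and SCRM, were under an unadjusted p of 0.05, against 40.9% of all genes. In eds4 the libraries of 4 genes, MUTE, TMM, SLAC1 and HT1, were all lower in nuclei, against 32.1% of all genes. The median log2 change of the 10 genes was -0.54 in eds4 nuclei, against 0.09 over all genes, and -0.77 in wild type nuclei, against 0.00 over all genes.

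FAMA, the factor of the last step to a guard cell, had the smallest p of the 10 genes between the nuclei of the genotypes. It had 15.7 and 14.7 CPM in eds4 nuclei, 3.53 and 4.37 CPM in wild type nuclei, 9.79 and 14.8 CPM in eds4 total RNA and 15.3 and 9.26 CPM in wild type total RNA. The wild type nuclei were below every other library, and the 6 others spanned 9.26 to 15.7 CPM. FAMA was lower in wild type nuclei than in wild type total RNA, with a log2 change of -1.64 (SE 0.38, edgeR adjusted p = 0.0101). Without wild type total replicate 1 this change was -1.25 and the adjusted p 0.106. In this and every other analysis of nuclei or total RNA with a library left out, a group of 1 library remained, which was assumed to vary like the other groups. In eds4 the 95% interval of the log2 change of nuclei against total RNA was -0.51 to 1.12 (edgeR adjusted p = 0.57).

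Between the genotypes, FAMA in nuclei had a log2 change of 1.95 (SE 0.39), or 3.85-fold (95% interval 2.12 to 6.99), with an edgeR p of 0.000516 and an adjusted p of 0.0716 over all genes. It was therefore not called by the main test, which called 0.363% of all genes, whereas DESeq2 (adjusted p = 0.00255) and edgeR without the filter on low counts (adjusted p = 0.000675) called it. These were 2 of its 10 alternative analyses, and in the other 8 it was not called. Over all genes the 2 analyses that called FAMA also called more, 837 and 1167 genes, against 78 by the main test. As given above, the level of EDS4 RNA did not separate the nuclei by label, so it is no check of the labels behind this direction. The eds4 minus wild type difference of the nuclei-to-total ratio was 1.94 on the log2 scale (SE 0.53, 95% interval 0.77 to 3.12), with an edgeR adjusted p of 0.771, and 0 of 21484 genes were called in that test (0%). DESeq2 called 40 genes there, none of them among the 10, and 5.83% of genes were under an unadjusted p of 0.05 in edgeR. In total RNA FAMA did not separate the genotypes (95% interval of the log2 change -0.81 to 0.82).

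TMM, the receptor-like partner in EPF2 perception, was lower in nuclei of both genotypes by its values. It had 8.91 and 3.94 CPM in eds4 nuclei, against 14.6 and 14.6 CPM in eds4 total RNA, and 5.42 and 4.50 CPM in wild type nuclei, against 13.4 and 12.4 CPM in wild type total RNA. Neither genotype's nuclei overlapped its total RNA. The log2 change was -1.38 in wild type (SE 0.41, edgeR adjusted p = 0.0303) and -1.17 in eds4 (SE 0.41, edgeR adjusted p = 0.0552). The wild type call was lost when any 1 of its 4 libraries was left out, with adjusted p-values of 0.0652 (nuclei replicate 1), 0.0988 (nuclei replicate 2), 0.129 (total replicate 1) and 0.0984 (total replicate 2). In eds4 it was called in 6 of 10 alternative analyses, among them the one without nuclei replicate 1 (adjusted p = 0.00928). The 95% interval of the difference of the ratio between the genotypes was -1.07 to 1.49 on the log2 scale (edgeR adjusted p = 0.993).

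HT1, the kinase of the carbon dioxide response, had few reads in nuclei. It had 0 and 11 counts in eds4 nuclei, against 60 and 106 in eds4 total RNA, and 1 and 6 counts in wild type nuclei, against 57 and 75 in wild type total RNA. Scaled, these were 0 and 0.788 CPM in eds4 nuclei, 0.0484 and 0.397 CPM in wild type nuclei, 2.11 and 4.81 CPM in eds4 total RNA and 1.87 and 2.68 CPM in wild type total RNA. The count of 0 allows a level of up to 0.121 CPM. Nuclei lay below total RNA in every library of both genotypes, and the ratio of the summed counts, allowing for library size, was 0.0864 in eds4 (95% exact interval 0.0423 to 0.159) and 0.0866 in wild type (0.0341 to 0.183). These intervals cover counting error only. The log2 changes of -3.23 in eds4 (SE 1.46) and -3.39 in wild type (SE 1.51) had edgeR adjusted p-values of 0.126 and 0.116, and each was called in 3 of 10 alternative analyses, of which 1 in eds4 (adjusted p = 0.0106) kept as its only nuclei library the one with 0 counts, so that call took its spread from the other groups.

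SCRM was the highest of the genes in nuclei. It had 77.5 and 64.1 CPM in eds4 nuclei, against 49.0 and 41.6 CPM in eds4 total RNA, with no overlap, and 46.9 and 62.4 CPM in wild type nuclei, against 54.2 and 39.9 CPM in wild type total RNA, with overlap. A position of all nuclei above all total RNA libraries, as in eds4, held for 33.5% of all genes. The log2 change was 0.64 in eds4 (SE 0.26, edgeR adjusted p = 0.0886) and its 95% interval in wild type was -0.36 to 0.79.

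MUTE, SPCH and EPF2, which act before FAMA, gave wide intervals. MUTE had 2 and 0 counts in eds4 nuclei, against 12 and 12 in eds4 total RNA, and 0 and 11 counts in wild type nuclei, against 21 and 18 in wild type total RNA. The summed MUTE counts gave a nuclei-to-total ratio of 0.109 in eds4 (95% exact interval 0.0124 to 0.438, counting error only) and of 0.461 in wild type (0.213 to 0.917). All 11 counts of wild type nuclei came from replicate 2. SPCH had 1.82 and 3.37 CPM in eds4 nuclei, 0.338 and 3.64 CPM in wild type nuclei, 2.61 and 5.99 CPM in eds4 total RNA and 6.43 and 3.15 CPM in wild type total RNA, so nuclei and total RNA overlapped in both genotypes. Without wild type nuclei replicate 2, SPCH had a log2 change of -3.81 and an edgeR adjusted p of 0.0243, against -1.29 (SE 0.94) with all libraries; the nuclei were then 1 library with 7 counts, and the spread came from the other groups. EPF2 ranged from 1.90 to 3.37 CPM in eds4 nuclei, against 2.08 to 4.59 CPM in eds4 total RNA, and from 1.89 to 4.30 CPM in wild type nuclei, against 2.20 to 2.72 CPM in wild type total RNA.

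KAT1, MYB60 and SLAC1 had replicates that stood far apart in several groups. KAT1 had 11.9 and 7.52 CPM in eds4 nuclei, 16.3 and 4.30 CPM in wild type nuclei, 5.85 and 13.5 CPM in eds4 total RNA and 10.9 and 6.26 CPM in wild type total RNA. MYB60 had 12.6 and 5.95 CPM in eds4 nuclei, 4.69 and 4.77 CPM in wild type nuclei, 5.74 and 17.3 CPM in eds4 total RNA and 6.56 and 8.15 CPM in wild type total RNA. KAT1 overlapped throughout, and MYB60 was lower in both wild type nuclei than in both wild type total RNA libraries (log2 change -0.64, 95% interval -1.86 to 0.59). SLAC1 had 1.17 and 1.72 CPM in eds4 nuclei, against 2.82 and 4.54 CPM in eds4 total RNA, with no overlap (log2 change -1.35, 95% interval -3.05 to 0.35), and 0.870 and 3.18 CPM in wild type nuclei, against 2.53 and 3.18 CPM in wild type total RNA.

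**Figure D3:**
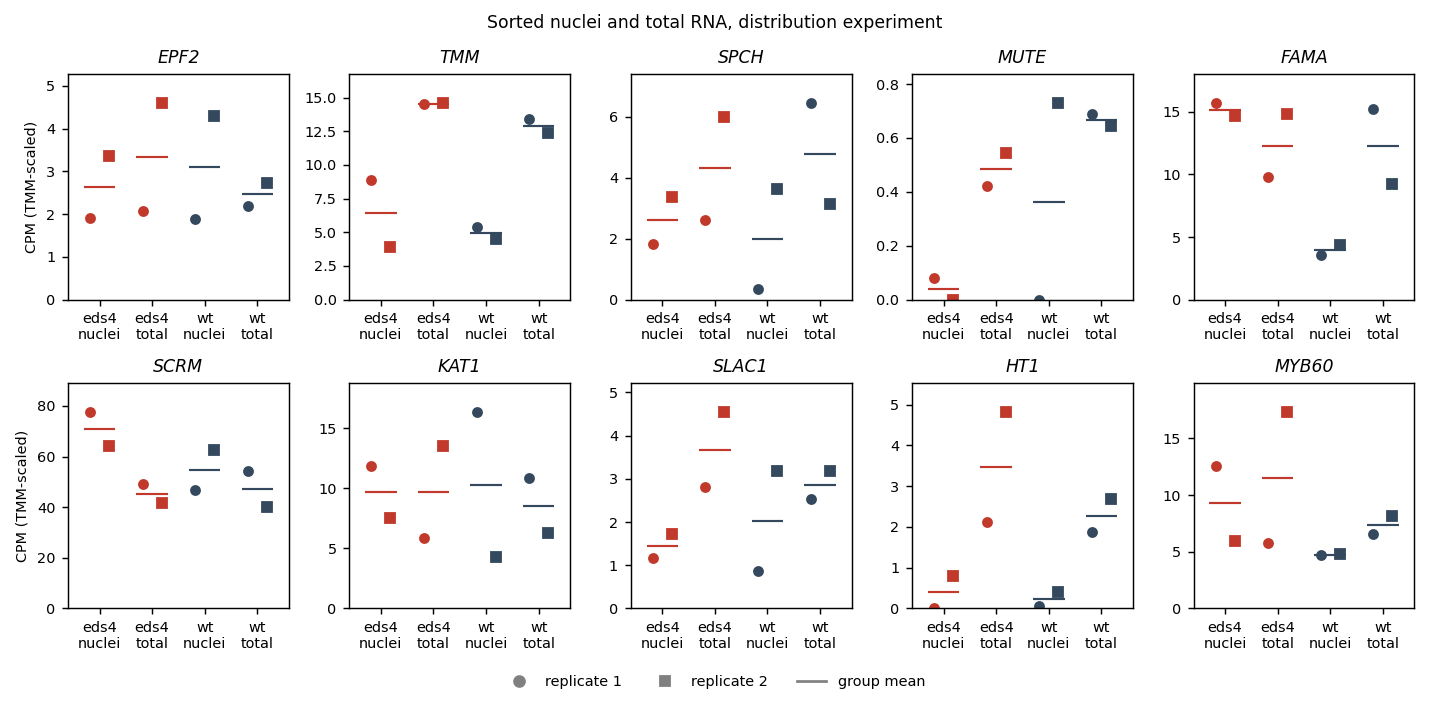
TMM-scaled CPM of the 10 genes in each library of the distribution experiment, as nuclei and total RNA of eds4 (red) and of wild type (dark), with circles for replicate 1, squares for replicate 2 and a line at each group mean. FAMA in wild type nuclei (3.53 and 4.37 CPM) lies below the other 6 libraries, TMM and HT1 lie lower in nuclei than in total RNA of both genotypes, and most other genes have replicates as far apart as the groups.

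Between the genotypes, 0 of the 10 genes were called in nuclei and 0 in total RNA, where edgeR called 0.363% and 0.00465% of all genes. The mutated gene EDS4 was itself not called in total RNA. DESeq2 called 1 of the 10 in nuclei, FAMA, and 0 in total RNA, where it called 837 and 16 of all genes. FAMA in nuclei was the single value of the 10 genes under an unadjusted p of 0.05 by edgeR. Over all genes 14.1% were under it in nuclei and 2.82% in total RNA. All eds4 nuclei lay above all wild type nuclei for 3 of the 10 genes, FAMA, SCRM and MYB60, against 19.6% of all genes. MYB60 in nuclei had a log2 change of 0.98 (SE 0.55, 95% interval -0.25 to 2.21), and SCRM of 0.37 (SE 0.26, 95% interval -0.20 to 0.95). With 2 libraries a group the median SE was 0.66 in nuclei, against 0.14 in the profiling seedlings, so changes of the size of those in seedlings were not detectable with these libraries.

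**Figure D4:**
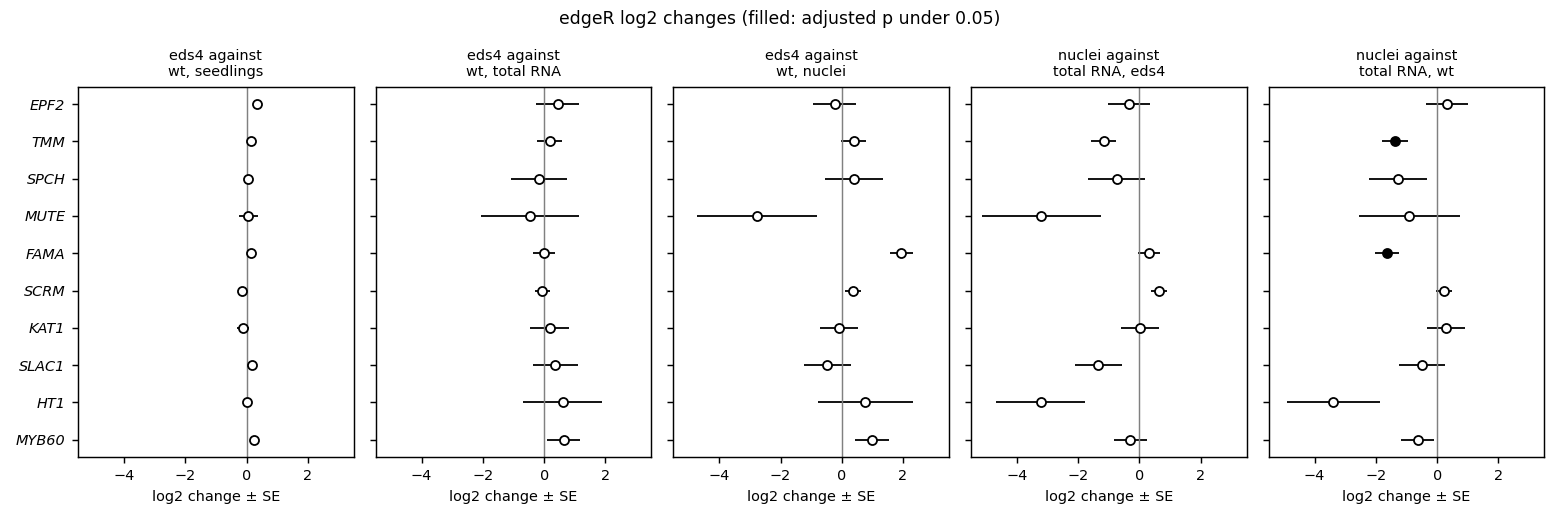
Log2 changes of the 10 genes with their SE, from edgeR, in eds4 against wild type (seedlings, total RNA, nuclei) and in nuclei against total RNA (eds4, wild type), with filled points for an adjusted p under 0.05. The 2 filled points are FAMA (-1.64) and TMM (-1.38) in wild type nuclei against total RNA, and the bars in seedlings are the shortest.

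A few other genes of stomatal signalling were called between nuclei and total RNA, in both directions. Of the 25 lineage signalling and patterning genes, 2 rose and 2 fell in eds4 nuclei, and 0 rose and 2 fell in wild type nuclei. Over all genes 15.6% rose and 14% fell in eds4, and 15.1% rose and 15.6% fell in wild type. The counts of the 25 genes did not exceed these shares. MPK6, a mitogen-activated protein kinase that acts below the receptors, fell in both genotypes, at 24.9 and 23.4 CPM in eds4 nuclei, against 53.3 and 60.6 CPM in eds4 total RNA, and 22.8 and 36.9 CPM in wild type nuclei, against 52.0 and 61.4 CPM in wild type total RNA. The MPK6 log2 change was -1.24 in eds4 (SE 0.27, edgeR adjusted p = 0.00744) and -0.93 in wild type (SE 0.27, edgeR adjusted p = 0.027). In eds4 the other calls were the kinase gene MKK4 (log2 change 1.45) and the peptide gene EPFL6 (1.74), which rose, and the subtilase gene ATSBT5.2 (-2.19), which fell. In wild type the other call was the cyclin gene CYCA2;3 (-1.24), which fell. The list's median log2 change was 0.11 in eds4, against 0.09 over all genes, and -0.15 in wild type, against 0.00.

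Of the 30 guard cell function genes, 6 rose and 5 fell in eds4 nuclei, and 6 rose and 6 fell in wild type nuclei, where 15.6% of all genes rose and 14% fell in eds4, and 15.1% rose and 15.6% fell in wild type. The protein phosphatase gene HAB1, a negative regulator of abscisic acid signalling, rose in both, with log2 changes of 1.82 in eds4 (SE 0.31, edgeR adjusted p = 0.00193) and 1.17 in wild type (SE 0.30, edgeR adjusted p = 0.0153), the wild type value being chosen after it was seen. The related phosphatase genes ABI1 and ABI2 rose in eds4 (1.66 and 1.79). The calcium-dependent kinase gene CPK3 fell in both, by 1.48 on the log2 scale in eds4 and by 0.97 in wild type. GORK, the outward potassium channel of guard cells, rose in wild type nuclei, at 19.1 and 13.0 CPM against 5.15 and 3.57 CPM in total RNA (log2 change 1.88, SE 0.40, edgeR adjusted p = 0.00677), as did the oxidase gene RBOHF (1.67). AKS1, a bHLH factor that promotes potassium channel expression in guard cells, fell in wild type nuclei, at 4.74 and 5.43 CPM against 19.8 and 18.4 CPM in total RNA (log2 change -1.91, SE 0.45, edgeR adjusted p = 0.0106). The proton pump gene AHA1 also fell there, at 328 and 237 CPM against 702 and 601 CPM in total RNA (log2 change -1.21, SE 0.30, edgeR adjusted p = 0.013). ALMT12, an anion channel gene chosen after its values were seen, fell to 1.13 and 0.143 CPM in eds4 nuclei, against 4.12 and 5.45 CPM in eds4 total RNA (edgeR adjusted p = 0.0364), and to 0.580 and 0.662 CPM in wild type nuclei, against 2.69 and 4.93 CPM in wild type total RNA (edgeR adjusted p = 0.0492). Of the log2 changes named here, those of MPK6, HAB1, ABI1 and CPK3 in eds4 were called with any 1 of the 4 libraries left out. The call of MKK4 was lost without eds4 total replicate 2, that of GORK without wild type total replicate 2 and that of RBOHF without wild type total replicate 1, and the others were lost without at least 2 of the 4 libraries. In wild type these were replicate 2 of each fraction for CPK3, replicate 1 of each for AKS1, and total replicate 1 and nuclei replicate 2 for AHA1, and otherwise they included both total RNA libraries of the genotype. Between the genotypes edgeR called 0 of the 25 and 0 of the 30 genes in nuclei, in total RNA and in the difference of the ratio. In nuclei DESeq2 called 0 of the 25 and 2 of the 30, and 2 and 5 were under an unadjusted p of 0.05, where DESeq2 called 837 of all genes and 14.1% were under that p, so these counts too were near the background. In total RNA and in the difference of the ratio DESeq2 called none, and 1 gene in each was under an unadjusted p of 0.05.

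Markers of other cells moved between the fractions as well. The myrosinase genes TGG1 and TGG2, products of myrosin cells and guard cells, 2 of 2 on their list, fell in nuclei of both genotypes, with a summed level of 359 to 417 CPM in eds4 nuclei, against 2861 to 3088 CPM in eds4 total RNA, and 383 to 525 CPM in wild type nuclei, against 3439 to 3478 CPM in wild type total RNA. The myrosinase sum in total RNA was thus lower in eds4, without overlap. In profiling seedlings it was 1883 to 2207 CPM in eds4, against 2307 to 2607 CPM in wild type, also without overlap. Between the genotypes edgeR called neither gene in seedlings or total RNA. All 8 mesophyll genes fell in nuclei of both genotypes, with a summed level of 8953 to 10560 CPM in eds4 nuclei, against 68900 to 74530 CPM in eds4 total RNA, and 10690 to 14880 CPM in wild type nuclei, against 67440 to 77020 CPM in wild type total RNA. In eds4 against wild type seedlings, the mesophyll genes had a median log2 change of -0.32. There edgeR called 0 of the 8, and 4 were under an unadjusted p of 0.05. Of 9 epidermal genes 3 fell in eds4 and 5 in wild type, of 8 genes of dividing cells 3 fell in each, and of 4 trichome genes 1 fell in each, where 14% of all genes fell in eds4 and 15.6% in wild type. Of 6 root hair genes, RHD6 and RSL4 were at 0 counts in all nuclei and were not tested.

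Some of these lists also had sums that differed between the nuclei of the genotypes, beside the FAMA values, which edgeR did not call. The summed epidermal level was 603 to 666 CPM in eds4 nuclei, against 398 to 457 CPM in wild type nuclei, and that of dividing-cell genes was 108 to 115 CPM in eds4 nuclei, against 71.9 to 79.9 CPM in wild type nuclei. Both sums were also higher in eds4 total RNA, without overlap, so this was not particular to nuclei. Epidermal genes had 1150 to 1429 CPM in eds4 total RNA, against 1039 to 1084 CPM in wild type total RNA. Dividing-cell genes had 176.9 to 180.5 CPM in eds4 total RNA, against 123.5 to 151.4 CPM in wild type total RNA. Trichome and root hair sums were lower in eds4 nuclei, without overlap. For trichomes they were 20.3 to 28.3 CPM against 34.5 to 42.0 CPM in wild type nuclei. For root hairs they were 1.09 to 4.23 CPM against 6.68 to 15.04 CPM. The trichome gene GL2 alone held 34.0 and 38.8 CPM in wild type nuclei, and the root hair gene PRP3 held 7.98 and 0.794 CPM. These 2 sums thus rest on few genes, and in total RNA they overlapped between the genotypes. Of all single genes, 19.6% lay higher and 18.8% lower in eds4 nuclei without overlap. These shares are of single genes and give no background for sums over several genes. The summed mesophyll level, given above, was also lower in eds4 nuclei, but its genes did not share a direction: LHCB1.3 was at 3537 and 3510 CPM in eds4 nuclei, against 7237 and 4906 CPM in wild type nuclei, PSAD1 was at 508 and 514 CPM in eds4 nuclei, against 320 and 254 CPM in wild type nuclei, and the median log2 change of the 8 genes was 0.04. The summed level of the other guard cell function genes overlapped, at 1910 to 3508 CPM in eds4 nuclei and 2009 to 3826 CPM in wild type nuclei. In total RNA it was lower in eds4, at 3907 to 4394 CPM against 5005 to 5172 CPM in wild type. BCA1 alone held 1372 CPM in eds4 nuclei replicate 1 and 1668 and 512 CPM in wild type nuclei. That sum therefore says little about the genes of lower level. The median log2 change of the 30 genes was 0.018, against -0.004 over all genes. By edgeR no gene of these lists was called between the nuclei, and the part of the cell types in the FAMA values was not tested.

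Across the 15 libraries the mean standardised level of SPCH, MUTE, TMM and EPF2 had a Pearson correlation of 0.98 with SLAC1 and of 0.67 with FAMA, and of -0.41 with SCRM. The other guard cell genes had lower correlations than SLAC1, with 0.84 for HT1, 0.66 for MYB60 and 0.38 for KAT1. In the 11 whole-seedling libraries alone the correlations were 0.90 with SLAC1, 0.91 with FAMA and 0.14 with SCRM. There HT1 had 0.59, MYB60 0.73 and KAT1 0.91. Among 19102 other genes, those most like this early lineage profile were AT3G01360 (0.97), AT3G19250 (0.96), AT1G71780 (0.96), mSFC1 (0.95) and the chloroplast locus ATCG01190 (0.95). The profile of KAT1, MYB60, SLAC1 and HT1 was closest to ABCG18 (0.97), AT5G20700 (0.97), ESM1 (0.96), AT5G09480 (0.95) and AT2G43150 (0.95), and had a correlation of -0.50 with SCRM, against -0.12 in the 11 whole-seedling libraries. These values describe libraries that share groups and experiments and carry no test. In the 11 whole-seedling libraries alone, 0 of the 5 nearest genes of either profile were the same, and there KAT2, a channel gene closely related to KAT1, was nearest to the early lineage profile (0.97).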

How the data were processed

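Per the labels, polyadenylated RNA was made into libraries with a TruSeq kit with random hexamers and 12 cycles of PCR, and read in pairs. The values are the authors' unnormalised counts of reads at each locus, in 3 tables. TopHat2 2.1.1, SAMtools 1.3 and the TAIR10 build are named in the submitters' processing notes. The counting program, its strand setting and the handling of reads with several matches are not given in these sources. The labels number the replicates but do not say whether they came from separate cultures, so the p-values reflect only how far these samples vary, part of which may be technical.

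Columns were matched to samples by name. Each experiment was fitted on its own, with 1 mean per group, by edgeR 4.0.16 (filterByExpr, TMM, quasi-likelihood F test) in R 4.3.3, with Benjamini-Hochberg adjustment over all genes tested and a threshold of 0.05. Intervals are 95%, from the fit's degrees of freedom, and a count of 0 allows up to 3 counts. Levels per kb used the exonic length in the tables. Fits were tested on simulated data. Alternatives were DESeq2 1.42.0, another scaling, no filter, a replicate block, other sets of libraries and each library left out. Likeness was Pearson correlation of log2 CPM. Sequences are from RefSeq TAIR10.1. Figures were drawn with matplotlib 3.10.9. The 10 genes and the gene lists were chosen with earlier results of these data known. Of the 2 stomatal lists, up to 5 genes per comparison with the smallest p were named if called; genes or values outside this rule are said to be chosen later, and 3 without a symbol in the annotation go unnamed.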

Additional observations from a re-analysis of the deposited data

Results flagged for a closer look

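TMM in wild type seedlings had 1 library far from the others: replicate 1 stood at 24.55 CPM, whereas the other 3 lay between 17.8 and 18.5 CPM. Its gap to the nearest library was 0.887 of the range of the 4, above Dixon's 95% critical value for 4 samples. In the same 4 libraries the other 9 genes and EDS4 had no library this far from the rest, and chance alone gives about 1 such value in 20 groups. In eds4 seedlings TMM was also highest in replicate 1, at 24.4 CPM, with replicate 2 close to it at 23.5 CPM.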

How the results depend on the processing

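In seedlings 0 of the 10 genes were called under all 14 alternatives, while the count over all genes moved from 297 to 1011 with DESeq2, 868 with a term for the replicate sets, 194 with all 11 whole-seedling libraries and, in a comparison added after seeing the data, 525 within replicates 1 and 2, and ranged from 42 to 462 when 1 library was left out. Between wild type nuclei and total RNA, leaving out 1 library gave 3418 to 5605 called genes and 0 to 2 called members, against 6582 and 2. In eds4 it gave 3729 to 5602 called genes, against 6357, and 0 to 1 called members, and members called were 2 with DESeq2, 2 with no filter, 1 with RLE scaling and 1 with library sizes free of organelle and ribosomal loci, against 0. Between the genotypes in total RNA, called genes were 16 with DESeq2, 95 with no filter and 1 to 2 with 1 library left out, against 1. In nuclei they were 837 with DESeq2, 1167 with no filter, 32 with RLE scaling, 36 without organelle and ribosomal loci, 3 with the 4 nuclei libraries alone and 1 to 181 with 1 library left out, against 78, and 1 member was called with DESeq2 and 1 with no filter. In the difference of the ratio they were 40 with DESeq2 and 226 with no filter, against 0. The causes were not tested.

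Same-numbered libraries did not deviate together throughout (correlation 0.38, -0.097 and 0.361 in seedlings, and -0.039 to 0.112 in the distribution experiment), so the numbers were not taken as pairs. With the replicate block, called genes were 414 in seedlings, 6588 in wild type and 6322 in eds4 nuclei against total RNA, 4 in total RNA between the genotypes and 132 in nuclei, and TMM was called in eds4, the 1 member that the block added there.

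Of the 23 member changes larger than their SE, under 258 alternative values 236 kept their direction and their side of the threshold, 5 lost a call, 15 gained one and 2 turned: with 1 library left out, MYB60 between the genotypes in total RNA ranged from -0.36 (without eds4 replicate 2) to 1.23, and MUTE in nuclei from -6.01 to 3.29 (without wild type replicate 2). The 37 smaller changes changed sign in 75 of 409 alternative values. Of 34 called changes in the 2 stomatal lists, TGG1, TGG2 and CER1, 8 were called under every alternative tried and none turned; called genes of the other lists were not run. The depth of the nuclei limits MUTE and HT1, where 3 counts equal 0.121 to 0.215 CPM.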
